A study of Mus musculus with 13 samples.

Results

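The Bcl2 family comprises the proteins that set whether a cell releases cytochrome c from its mitochondria and dies. Expression of 9 of its genes was followed here in 10 thymic lymphomas and 3 WT thymuses. The 9 genes were chosen by name and stand among 43629 genes of the expression table, of which 15872 were tested. They are the survival genes Bcl2, Bcl2l1 (Bcl-xL), Mcl1 and Bcl2l2 (Bcl-w), the effector Bak1, and the BH3-only genes Bcl2l11 (Bim), Bid, Bad and Bmf. The filter on low values, which asked for 3 or more libraries at a normalized count of 10 or above, kept all 9.

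Polyadenylated RNA was sequenced from single-cell suspensions. The lymphomas were 5 Atm-/- tumors of strain 129S6/SvEv and 5 Rag2c/c p53-/- tumors of a mixed background of C57BL/6 and 129S6/SvEv. Atm encodes the kinase that signals DNA double-strand breaks. Rag2c/c mice express RAG2 without its C-terminal part, and here they also lack p53, the transcription factor that induces several pro-apoptotic family members after DNA damage. The 3 WT thymuses were C57BL/6 and had been sequenced for another series of the laboratory. Their source name reads thymic lymphoma, while their genotype, tissue and title say WT thymus, and the latter were used. The labels give no ages and no treatment. Genotype, tumor state, strain and series go together in this design, so their parts in a difference cannot be told apart. The labels do not say that libraries of a group came from separate animals, and p-values measure the spread between these libraries.

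In a living cell the survival proteins hold the effectors BAK and BAX and the BH3-only proteins in check. BH3-only proteins are the sensors of the pathway and are induced or activated by loss of cytokine, DNA damage or antigen receptor signals. When they outweigh the survival proteins, BAK and BAX open the outer mitochondrial membrane and caspases are activated. In the thymus, most CD4+CD8+ double positive (DP) thymocytes die by this route, and BIM is the best known mediator of negative selection. DP thymocytes are known to depend on Bcl-xL and MCL1, while BCL2 is associated with the double negative (DN) and the mature single positive (SP) stages.

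Values are normalized counts that were rounded to whole numbers, with column totals between 19788898 and 21591289. In 6 of the 13 libraries a single read was worth 1.47 to 3.38 units, which gives an estimated 6.37 to 13.7 M reads, the shallowest being Rag2c/c p53-/- lymphoma 2 and WT thymus 2. Depth could not be resolved in the other 7. The 6 T cell markers Cd3d, Cd3e, Cd3g, Lck, Thy1 and Cd2 were present in every group, with summed values of 61514 to 99921 in WT thymus, 56618 to 104050 in Atm-/- lymphomas and 52306 to 105966 in Rag2c/c p53-/- lymphomas. The targeted gene Atm averaged 497 in Atm-/- lymphomas, 942 in Rag2c/c p53-/- lymphomas and 1941 in WT thymus. It fell in both lymphoma groups, by 2.06 (adjusted p = 0.00170) and 1.16 (adjusted p = 0.0441) on the log2 scale. Trp53 averaged 3568 in Rag2c/c p53-/- lymphomas against 5075 in WT thymus and did not pass the test (log2 fold change -0.57, adjusted p = 0.131 by limma). In Atm-/- lymphomas it averaged 8934 and rose against WT thymus by 0.81 on the log2 scale (adjusted p = 0.0342 by limma). Trp53 was also higher in Atm-/- than in Rag2c/c p53-/- lymphomas, by 1.38 (adjusted p = 0.00328 by limma). Between the lymphoma groups Atm did not pass (log2 fold change -0.89, adjusted p = 0.135 by limma). Its values of 208 to 732 in Atm-/- lymphomas overlapped those of 439 to 1315 in Rag2c/c p53-/- lymphomas. Values summed over a whole gene cannot show a deleted or shortened part, so they do not check the Atm, p53 and Rag2 labels. The mean of Rag2 was 4703 in WT thymus, 427 in the Atm-/- group and 538 in the Rag2c/c p53-/- group.

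Promoter sequences are shown for the 5 members that passed the test in the same direction in both lymphoma groups against WT thymus, each of which has 1 window in the RefSeq table. These are the survival genes Bcl2, Mcl1 and Bcl2l2, which fell, and the death genes Bak1 and Bid, which rose. Each window runs from 250 bases before to 50 bases after an annotated start, 300 bases in all, written 5′ to 3′ on the gene's strand, from RefSeq on GRCm38.p6. Capitals mark matches on either strand to an E-box (CANNTG), an ETS site (GGAAG), a RUNX site (TGTGGT) or an E2F site (GGCGGGA). The last letters of the E2F site can overlap the first letters of the ETS site.
Bcl2 (chr1:106714241-106714540, minus strand): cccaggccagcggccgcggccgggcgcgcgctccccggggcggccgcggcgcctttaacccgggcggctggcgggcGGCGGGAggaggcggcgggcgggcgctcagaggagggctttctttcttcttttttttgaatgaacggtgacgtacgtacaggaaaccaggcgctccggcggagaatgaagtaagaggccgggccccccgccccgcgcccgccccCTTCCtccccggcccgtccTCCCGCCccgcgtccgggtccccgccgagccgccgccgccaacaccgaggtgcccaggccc
Mcl1 (chr3:95658471-95658770, plus strand): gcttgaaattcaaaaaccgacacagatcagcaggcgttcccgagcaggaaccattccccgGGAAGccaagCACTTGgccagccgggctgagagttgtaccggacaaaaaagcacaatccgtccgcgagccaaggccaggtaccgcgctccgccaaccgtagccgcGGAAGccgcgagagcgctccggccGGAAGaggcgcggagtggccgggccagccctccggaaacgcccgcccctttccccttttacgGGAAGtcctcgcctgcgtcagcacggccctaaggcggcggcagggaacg
Bcl2l2 (chr14:54883175-54883474, plus strand): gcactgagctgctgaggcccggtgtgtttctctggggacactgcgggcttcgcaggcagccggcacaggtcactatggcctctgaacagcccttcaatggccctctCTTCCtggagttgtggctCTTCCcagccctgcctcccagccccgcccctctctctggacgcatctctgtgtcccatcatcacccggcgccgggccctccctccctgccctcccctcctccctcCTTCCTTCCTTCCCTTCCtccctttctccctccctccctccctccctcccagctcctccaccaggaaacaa
Bak1 (chr17:27028578-27028877, minus strand): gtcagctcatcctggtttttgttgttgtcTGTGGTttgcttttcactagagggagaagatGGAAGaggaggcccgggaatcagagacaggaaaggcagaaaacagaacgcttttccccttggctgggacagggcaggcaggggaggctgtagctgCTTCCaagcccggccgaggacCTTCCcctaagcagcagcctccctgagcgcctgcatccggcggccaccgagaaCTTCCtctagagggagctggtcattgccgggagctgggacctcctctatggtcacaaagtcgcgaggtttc
Bid (chr6:120916775-120917074, minus strand): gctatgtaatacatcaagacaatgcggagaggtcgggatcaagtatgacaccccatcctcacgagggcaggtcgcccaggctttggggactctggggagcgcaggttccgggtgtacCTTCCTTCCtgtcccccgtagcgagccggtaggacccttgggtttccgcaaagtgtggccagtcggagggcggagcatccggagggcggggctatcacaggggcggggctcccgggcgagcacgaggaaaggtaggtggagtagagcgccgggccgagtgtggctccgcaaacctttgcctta

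The Bcl2 window held 2 E2F matches and 1 ETS match, and 76.0% of its bases were G or C. Mcl1 held 4 ETS matches and 1 E-box match, Bcl2l2 held 6 ETS matches, Bak1 held 4 ETS matches and 1 RUNX match, and Bid held 2 ETS matches. Among all 32851 RefSeq windows, 72.3% held an E-box, 71.4% an ETS match, 16.8% a RUNX match and 11.3% an E2F match. All 9 members had a window, 15 in all. A match is a description of the letters and not a measured binding site.

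In WT thymus, levels were compared between genes as normalized counts per kb of exon. Mcl1 was highest at 2484 ± 439 (SD, n = 3 thymuses), followed by Bcl2l1 at 1037 ± 105 and Bak1 at 907 ± 202. Bmf stood at 720 ± 98.3 per kb, Bcl2l11 at 415 ± 7.89 and Bcl2 at 335 ± 14.8. Bid at 273 ± 20.4, Bad at 173 ± 24.1 and Bcl2l2 at 48.7 ± 5.32 were lowest. Libraries of Bcl2l1 and Bak1 overlapped per kb, as did those of Bak1 and Bmf, and the other neighbours in this order did not overlap.

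The order differed in the lymphomas. Bak1, the pore-forming effector, was at 1970 ± 184 per kb (SD, n = 5) in Atm-/- lymphomas and stood first, above Mcl1 at 1447 ± 255, although their ranges of 1770 to 2209 and 1242 to 1811 overlapped. In Rag2c/c p53-/- lymphomas Mcl1 at 1559 ± 134 and Bak1 at 1474 ± 454 per kb came first and overlapped. Bcl2, the sixth in WT thymus, was the eighth in both lymphoma groups, at 40.3 ± 30.3 and 25.03 ± 8.51 per kb. Bid was the third in Atm-/- lymphomas at 899 ± 106 per kb and the fifth in Rag2c/c p53-/- lymphomas at 516 ± 176.

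**Figure D1:**
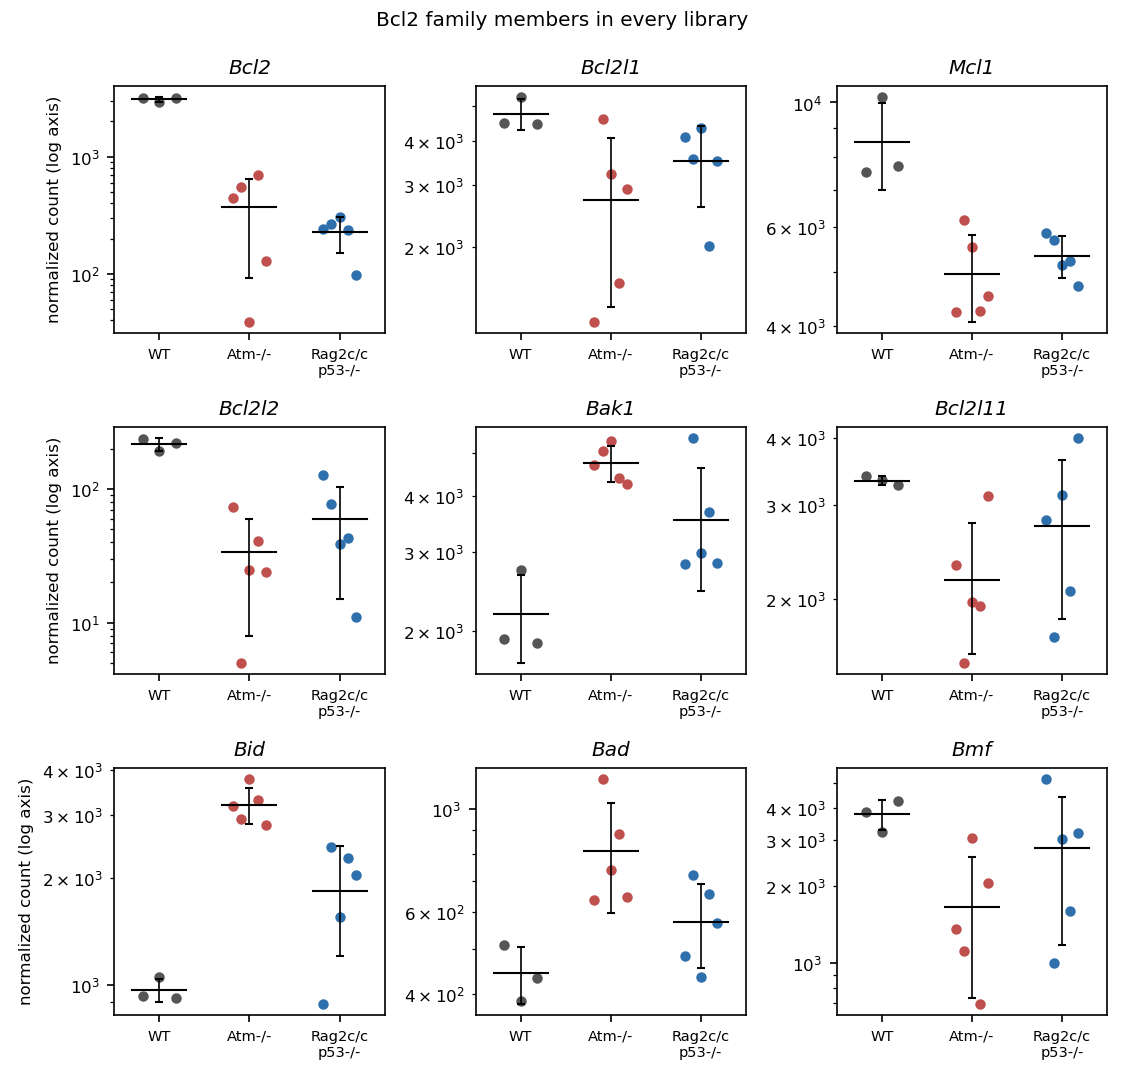
Normalized count of each of the 9 members (vertical log axis) in the 3 WT thymuses, 5 Atm-/- lymphomas and 5 Rag2c/c p53-/- lymphomas. Points are libraries, horizontal lines are group means and bars are SD. All lymphomas lie below WT thymus for Bcl2, Mcl1 and Bcl2l2 and above it for Bak1.

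The survival genes Bcl2, Mcl1 and Bcl2l2 fell in both lymphoma groups. Bcl2 (ENSMUSG00000057329, chromosome 1 from 106538178 to 106714274, minus strand, GRCm38) encodes the founding survival protein of the family. Its normalized counts were 3157, 2911 and 3134 in WT thymus. They were 443, 546, 39, 690 and 128 in Atm-/- lymphomas 1 to 5, and 243, 267, 303, 235 and 98 in Rag2c/c p53-/- lymphomas 1 to 5. All lymphomas were far below the thymuses, and the Atm-/- lymphomas varied the most, with lymphoma 2 and lymphoma 4 high and lymphoma 3 and lymphoma 5 low. The log2 fold change, by limma on log2(normalized count + 1), was -3.65 (SE 0.74, adjusted p = 0.00163) in Atm-/- lymphomas. It was -3.83 (SE 0.74, adjusted p = 0.00160) in Rag2c/c p53-/- lymphomas. Without Atm-/- lymphoma 3 the first value was -3.00. The 20 tested genes nearest to Bcl2, which span 16.7 Mb, had median log2 fold changes of -0.03 and -0.41. Of these, 4 rose and 3 fell in Atm-/- lymphomas, and 1 rose and 4 fell in Rag2c/c p53-/- lymphomas. Of all tested genes 21.0% rose and 23.6% fell in Atm-/- lymphomas, and 17.5% rose and 19.7% fell in Rag2c/c p53-/- lymphomas. In tissue sequenced in bulk, fewer cells of a type and less RNA per cell cannot be told apart.

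Mcl1 (ENSMUSG00000038612, chromosome 3 from 95658721 to 95663176, plus strand) encodes a short-lived survival protein. It had 7535, 10217 and 7717 normalized counts in WT thymus, 4246, 6191, 5528, 4249 and 4518 in Atm-/- lymphomas and 5871, 5684, 5141, 5225 and 4715 in Rag2c/c p53-/- lymphomas. No lymphoma reached the lowest thymus, and the 2 lymphoma groups overlapped. Mcl1 fell by 0.78 on the log2 scale in Atm-/- lymphomas (SE 0.16, adjusted p = 0.00169) and by 0.66 in Rag2c/c p53-/- lymphomas (SE 0.16, adjusted p = 0.00608). These falls were under 2-fold, and Mcl1 remained the most abundant survival gene per kb in every group.

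Bcl2l2 (ENSMUSG00000089682, chromosome 14 from 54883377 to 54888234, plus strand) encodes Bcl-w, a survival protein best known in testis and neurons. It was the lowest of the 4 survival genes among the members, with 239, 192 and 221 normalized counts in WT thymus. The Atm-/- lymphomas had 74, 5, 25, 41 and 24 and the Rag2c/c p53-/- lymphomas 127, 78, 39, 43 and 11. Again no lymphoma reached the thymuses. The value of 5 lies near the floor of its library, in which 1 read was worth 2.29 units. Bcl2l2 fell by 3.05 on the log2 scale in Atm-/- lymphomas (SE 0.78, adjusted p = 0.00672) and by 2.23 in Rag2c/c p53-/- lymphomas (SE 0.78, adjusted p = 0.0382). The second call was lost on leaving out any 1 WT thymus or Rag2c/c p53-/- lymphoma 3, 4 or 5, with adjusted p between 0.0598 and 0.112.

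Bcl2l1 (ENSMUSG00000007659, chromosome 2 from 152780668 to 152831728, minus strand) encodes Bcl-xL, the survival protein of DP thymocytes. Normalized counts were 4495, 5311 and 4468 in WT thymus, 1223, 4595, 3212, 1579 and 2919 in Atm-/- lymphomas and 4087, 3543, 4336, 2005 and 3498 in Rag2c/c p53-/- lymphomas. Atm-/- lymphoma 2 lay within the range of the thymuses, and Atm-/- lymphomas 1 and 4 were the lowest of the 13 libraries. Bcl2l1 fell by 0.97 on the log2 scale in Atm-/- lymphomas (SE 0.37, adjusted p = 0.0466), a call close to the threshold that was lost under 13 of 21 alternatives, 10 of which left out 1 library, with adjusted p between 0.0510 and 0.132. Its log2 fold change in Rag2c/c p53-/- lymphomas was -0.49 (SE 0.37, adjusted p = 0.315), with a 95% interval from -1.28 to 0.31.

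Summed per kb over the 4 survival genes, Mcl1 made up 63.4% ± 2.56 of the level in WT thymus, 70.5% ± 6.25 in Atm-/- lymphomas and 66.5% ± 6.04 in Rag2c/c p53-/- lymphomas (SD, n = 3, 5 and 5). Bcl2l1 made up 26.6% ± 0.86, 26.9% ± 7.75 and 32.0% ± 6.18. The share of Bcl2 was 8.71% ± 1.44 in WT thymus, 2.11% ± 1.76 in Atm-/- lymphomas and 1.06% ± 0.338 in Rag2c/c p53-/- lymphomas, with no lymphoma above 4.51% and no thymus below 7.05%. The RNA of these 4 survival genes in both lymphoma groups was therefore mostly that of Mcl1 and Bcl2l1, as it was in the thymus. Other survival genes of the family, such as Bcl2a1d, are not in this sum.

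The effector and 2 BH3-only genes moved the other way. Bak1 (ENSMUSG00000057789, chromosome 17 from 27019810 to 27029009, minus strand) had 1924, 2745 and 1884 normalized counts in WT thymus. It had 4696, 5051, 5317, 4388 and 4261 in Atm-/- lymphomas and 2822, 5397, 2989, 3692 and 2838 in Rag2c/c p53-/- lymphomas. All 10 lymphomas exceeded the thymuses, although Rag2c/c p53-/- lymphomas 1, 3 and 5 lay close to WT thymus 2. Bak1 rose by 1.14 on the log2 scale in Atm-/- lymphomas (SE 0.21, adjusted p = 0.000850) and by 0.67 in Rag2c/c p53-/- lymphomas (SE 0.21, adjusted p = 0.0226). The second call was lost without WT thymus 1 (adjusted p = 0.0994), without WT thymus 3 (adjusted p = 0.107) or with the 2 groups fitted alone (adjusted p = 0.0509).

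Bid (ENSMUSG00000004446, chromosome 6 from 120891930 to 120916853, minus strand) encodes the BH3-only protein that caspase-8 cleaves, the link from death receptors to mitochondria. Its normalized counts were 934, 1053 and 922 in WT thymus, 3168, 2916, 3767, 3303 and 2811 in Atm-/- lymphomas and 887, 2435, 1549, 2261 and 2027 in Rag2c/c p53-/- lymphomas. Every Atm-/- lymphoma was above every other library, and Rag2c/c p53-/- lymphoma 1 lay below the thymuses. Bid rose by 1.71 on the log2 scale in Atm-/- lymphomas (SE 0.26, adjusted p = 0.000241) and by 0.83 in Rag2c/c p53-/- lymphomas (SE 0.26, adjusted p = 0.0244). The call in Rag2c/c p53-/- lymphomas was lost without any 1 WT thymus, without Rag2c/c p53-/- lymphoma 4 or 5, and with the 2 groups fitted alone, with adjusted p of 0.0503 to 0.0853. Bid overlaps Bcl2l13, another gene of the family, whose values ranged from 1934 to 3608 over the 13 libraries and whose log2 fold change in Atm-/- lymphomas was -0.02 (adjusted p = 0.930).

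Bad (ENSMUSG00000024959, chromosome 19 from 6941861 to 6951898, plus strand) encodes a BH3-only protein held inactive by AKT phosphorylation and 14-3-3 binding. It had 509, 387 and 433 normalized counts in WT thymus, 638, 1156, 740, 880 and 646 in Atm-/- lymphomas and 482, 719, 435, 657 and 569 in Rag2c/c p53-/- lymphomas. Atm-/- lymphomas did not overlap WT thymus, while Rag2c/c p53-/- lymphomas 1 and 3 did. Bad rose by 0.84 on the log2 scale in Atm-/- lymphomas (SE 0.23, adjusted p = 0.00923), and its log2 fold change in Rag2c/c p53-/- lymphomas was 0.35 (SE 0.23, adjusted p = 0.240). Of its 20 nearest tested genes, which span 0.814 Mb, 8 rose and 2 fell in Atm-/- lymphomas, and their median log2 fold change was 0.61. In the same comparison 21.0% of all tested genes rose and 23.6% fell. Bad overlaps Gpr137 (mean 421) and Bak1 overlaps Ggnbp1 (mean 94.6). The libraries were made with a stranded kit, but the strand setting of the read counting is not given in the sources used here, so reads of overlapping genes may not have been told apart.

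The other 2 BH3-only genes were lower or scattered. Bcl2l11 (ENSMUSG00000027381, chromosome 2 from 128126038 to 128162547, plus strand) had 3395, 3343 and 3269 normalized counts in WT thymus, 2321, 1523, 1981, 1944 and 3121 in Atm-/- lymphomas and 2814, 1699, 3139, 2072 and 4001 in Rag2c/c p53-/- lymphomas. The Atm-/- lymphomas lay below the thymuses, with lymphoma 5 close to them, and Rag2c/c p53-/- lymphoma 5 was the highest of all libraries. The log2 fold change of Bcl2l11 in Atm-/- lymphomas was -0.66 (SE 0.26, adjusted p = 0.0574), and it passed under 4 of 21 alternatives (adjusted p of 0.0244 to 0.0405). Its value in Rag2c/c p53-/- lymphomas was -0.35 (SE 0.26, adjusted p = 0.319), with a 95% interval from -0.91 to 0.22.

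Bmf (ENSMUSG00000040093, chromosome 2 from 118528757 to 118549687, minus strand) encodes a BH3-only protein that dynein light chains hold at the cytoskeleton. Its normalized counts were 3856, 3232 and 4257 in WT thymus, 1354, 1121, 3040, 698 and 2045 in Atm-/- lymphomas and 5152, 1006, 3035, 1593 and 3196 in Rag2c/c p53-/- lymphomas. All Atm-/- lymphomas were below the thymuses, and the Rag2c/c p53-/- lymphomas reached from below to above them. Bmf fell by 1.37 on the log2 scale in Atm-/- lymphomas (SE 0.50, adjusted p = 0.0396). This call was lost on leaving out any 1 WT thymus or Atm-/- lymphoma 1, 2 or 4, with adjusted p between 0.0630 and 0.120, and when neither the trend nor robust moderation was used (adjusted p = 0.0572). The log2 fold change in Rag2c/c p53-/- lymphomas was -0.64 (SE 0.50, adjusted p = 0.328).

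Counted over the members, 8 of 9 passed the test in Atm-/- lymphomas against WT thymus, where 44.6% of all tested genes passed. The 3 that rose stand beside 21.0% of all tested genes, and the 5 that fell beside 23.6%. Groups did not overlap for 8 members, against 51.3% of all tested genes. In this comparison 5 members changed at least 2-fold, namely Bcl2, Bcl2l2, Bmf, Bak1 and Bid, against 29.5% of all tested genes. For Rag2c/c p53-/- lymphomas 5 of 9 passed, where 37.3% of all tested genes passed. Here 2 rose, beside 17.5% of all tested genes, and 3 fell, beside 19.7%. Groups did not overlap for 5 members, against 43.9% of all tested genes, and 2 members changed at least 2-fold, Bcl2 and Bcl2l2, against 23.6%. The median log2 fold change of the members was -0.78 and -0.49, beside -0.02 over all tested genes in both comparisons. Both comparisons share the 3 WT thymuses.

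**Figure D2:**
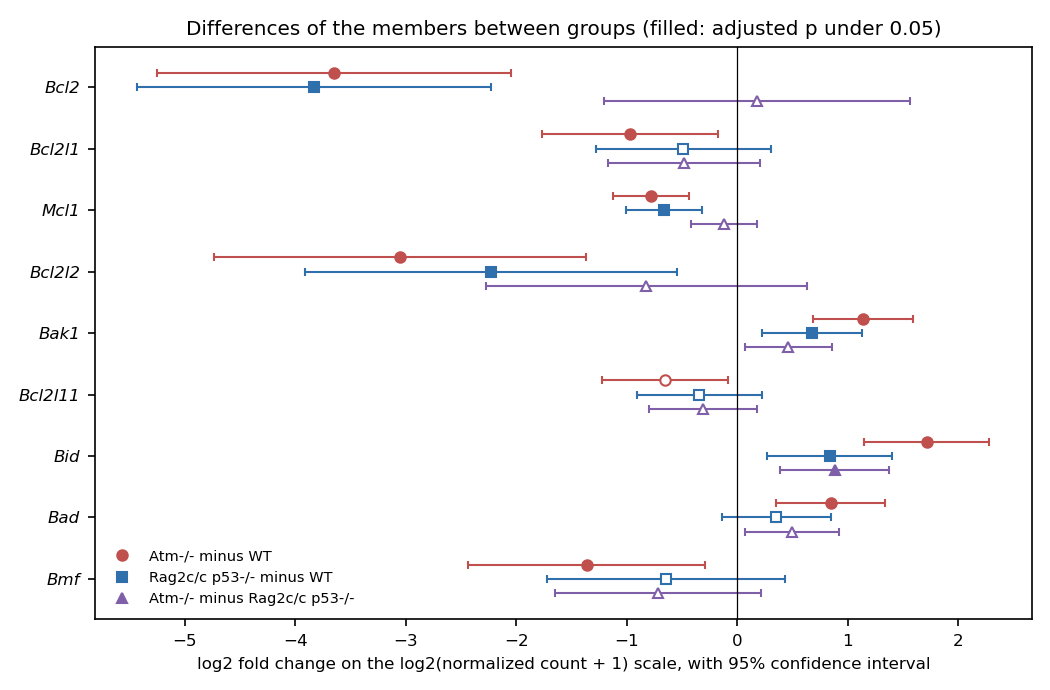
Log2 fold change of each member (horizontal axis) on the log2(normalized count + 1) scale for the 3 comparisons, with 95% confidence intervals. Filled symbols passed the limma test at an adjusted p under 0.05, which holds for 8, 5 and 1 of the 9 members.

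Between the lymphoma groups, Bid alone passed. It was higher in Atm-/- than in Rag2c/c p53-/- lymphomas by 0.88 on the log2 scale (SE 0.23, adjusted p = 0.0252), where 11.6% of all tested genes passed and 5.13% were higher in Atm-/- lymphomas. It was also the 1 member without overlap, against 8.33% of all tested genes. By limma 0 members changed at least 2-fold, against 7.84% of all tested genes, and 3 had an unadjusted p under 0.05. How many of all tested genes had such an unadjusted p was not computed. The adjusted p was 0.0507 to 0.0536 without Atm-/- lymphoma 1, 3 or 4 or Rag2c/c p53-/- lymphoma 3, and 0.0568 with these groups fitted alone. Bak1 differed by 0.46 (95% interval 0.07 to 0.85, adjusted p = 0.122) and passed without Rag2c/c p53-/- lymphoma 2 (0.62, adjusted p = 0.0133). Bad differed by 0.49 (95% interval 0.07 to 0.92, adjusted p = 0.130). For Bcl2 the difference was 0.18 with a 95% interval from -1.21 to 1.57, which leaves room for more than a 2-fold difference in either direction. The interval for Mcl1 was narrower, from -0.42 to 0.18.

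Ratios within a library do not depend on the scaling of libraries. The ratio of Bcl2l1 to Bcl2, per kb, was 2.84 to 3.64 in WT thymus, 4.57 to 164 in Atm-/- lymphomas and 17.0 to 71.3 in Rag2c/c p53-/- lymphomas. The ratio of Bcl2l11, a pro-death gene, to Bcl2 was 1.19 to 1.31 in WT thymus, 3.18 to 57.9 in Atm-/- lymphomas and 7.26 to 46.6 in Rag2c/c p53-/- lymphomas. The ratio of Bak1 to Mcl1, the survival protein known to bind BAK, was 0.347 to 0.382 in WT thymus, 1.16 to 1.57 in Atm-/- lymphomas and 0.683 to 1.35 in Rag2c/c p53-/- lymphomas. None of these ratios overlapped between WT thymus and either lymphoma group, and the ratios to Bcl2 were most variable among the Atm-/- lymphomas. For Bak1 to Mcl1 the lack of overlap follows from the single genes, which lay apart from WT thymus in opposite directions. The ratios to Bcl2 carry the fall of Bcl2 itself, so they are no separate result. How often other pairs of genes lack overlap was not computed. No test was run on the ratios.

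**Figure D3:**
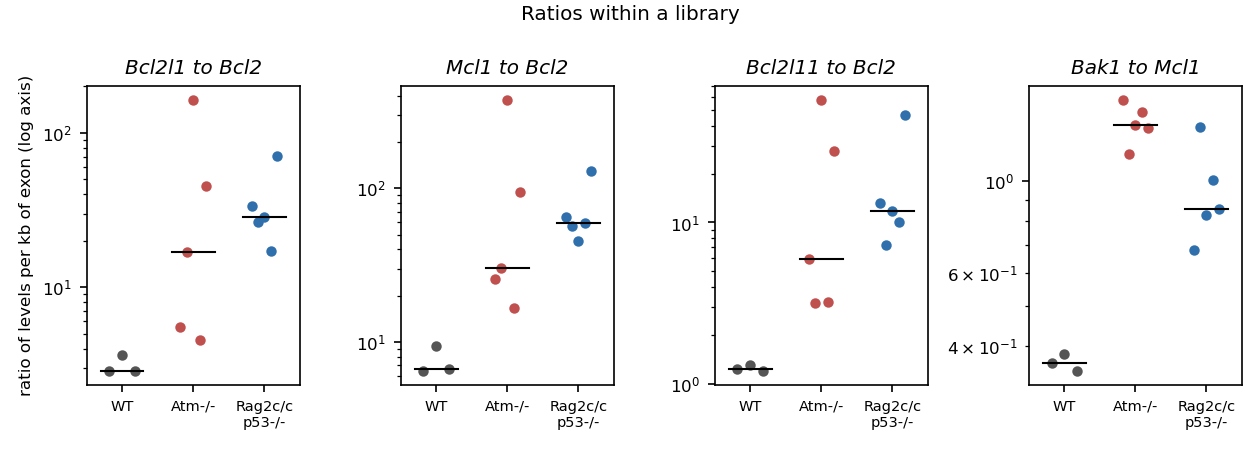
Ratios of levels per kb of exon within each library (vertical log axes), with points for the 3 WT thymuses, 5 Atm-/- lymphomas and 5 Rag2c/c p53-/- lymphomas and lines at the group medians. Every lymphoma lies above every thymus in all 4 panels, and the median ratio of Bak1 to Mcl1 was 0.363, 1.37 and 0.855.

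Marker genes of thymocyte stages and of other cell types differed between the same groups. Their called counts stand beside 21.0% of all tested genes that rose and 23.6% that fell in Atm-/- lymphomas. In Rag2c/c p53-/- lymphomas these shares were 17.5% and 19.7%. Summed over the 6 DP thymocyte markers, levels were 114123 to 172507 in WT thymus, 19789 to 53871 in Atm-/- lymphomas and 45695 to 74443 in Rag2c/c p53-/- lymphomas, and 5 and 2 of the 6 fell. Summed levels of the 5 mature SP markers were 13784 to 14270 in WT thymus, 5013 to 16401 in Atm-/- lymphomas and 1179 to 4723 in Rag2c/c p53-/- lymphomas. The 5 DN markers summed to 6263 to 6560, 681 to 30927 and 2327 to 6273 in the same order. B cell markers, 6 genes, summed to 1576 to 1885 in WT thymus and to no more than 554 in any lymphoma. Fibroblast markers, 6 genes, summed to 403 to 442 in WT thymus, 4137 to 17444 in Atm-/- lymphomas and 2054 to 3905 in Rag2c/c p53-/- lymphomas. Myeloid markers, 6 genes, summed to 3704 to 4178 in WT thymus, 7202 to 12047 in Atm-/- lymphomas and 4360 to 8897 in Rag2c/c p53-/- lymphomas. Markers of dividing cells, also 6, summed to 34836 to 40938, 31126 to 64247 and 36304 to 50665, and 5 and 3 of them rose. Thymic epithelium markers, 6 genes, summed to 725 to 1058, 189 to 609 and 287 to 1320, and 4 of them fell in each lymphoma group. Psmb11 was at 36 to 122 in WT thymus, at 0 in every Atm-/- lymphoma and at 0 or 1 in the Rag2c/c p53-/- lymphomas. The sums of the Rag2c/c p53-/- group rest in part on Epcam, at 22 to 875 there against 221 to 283 in WT thymus. The part of stage, other cells and division in the members' differences was not tested.

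Within groups, members varied with different genes. After subtraction of the group means, the gene most like each member was sought by Pearson's r of log2 values over 13 libraries, as a description with no p, and these libraries share depth and composition. For Bcl2 these were Hdgfrp3 (r = 0.95), Cd5 (0.94) and Il2ra (0.93), the alpha chain of the IL-2 receptor and a DN marker. Il2ra had 50 and 93 normalized counts in Atm-/- lymphomas 3 and 5, where Bcl2 was 39 and 128, and 4204, 17248 and 9640 in lymphomas 1, 2 and 4. The other DN markers were split. Hes1 (211 and 248) and Ptcra (143 and 243) were also low in lymphomas 3 and 5. Kit and Cd44 were highest in lymphoma 5 of this group (648 and 1575). They were lower in lymphoma 2 (9 and 100) and lymphoma 4 (11 and 164). A link of Bcl2 to the DN stage was not tested. Leprel4 (0.94) and Lipa (0.92) were among the genes most like Bcl2l1.

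For the death genes, Bid was most like Tcp1 (r = 0.95), a chaperonin subunit, Atic (0.94), an enzyme of purine synthesis, and Farsb (0.93), a tRNA synthetase subunit. Bak1 was most like Map2k2 (0.96), Gm25517 (0.94) and Ly6e (0.94). Zbtb6 and Stam2 (0.96 each) were among the genes most like Bmf, and Bcl2l11 was most like Zfp280d, Cluh and Mospd2 (0.92 each). Bad was most like Gm8394, Pde6d and Rps6-ps3 (0.97, 0.96 and 0.96). Mcl1 was most like Zmynd10, Rtf1 and Tmem189 (0.96, 0.93 and 0.93), and Bcl2l2 like Vwa9, Apol9b and Laptm4b (0.91, 0.90 and 0.89). Among the members themselves, Bcl2l1 and Mcl1 varied together (0.67), as did Bak1 and Bid (0.62) and Bcl2l11 and Bmf (0.62), while Bcl2l11 and Bad varied oppositely (-0.72).

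Other members of the family were measured beside these 9. Of 15 such genes 11 were tested, and 2 rose and 2 fell in Atm-/- lymphomas, 2 rose and 3 fell in Rag2c/c p53-/- lymphomas. Over all tested genes, 21.0% rose and 23.6% fell in Atm-/- lymphomas, and 17.5% rose and 19.7% fell in Rag2c/c p53-/- lymphomas. Bik, a BH3-only gene, had 16 to 26 normalized counts in WT thymus, 47 to 349 in the Atm-/- group and 180 to 442 in the Rag2c/c p53-/- group, and rose by 3.09 (adjusted p = 0.000721) and 3.76 (adjusted p = 0.000276). Pmaip1, which encodes the p53 target NOXA, had 88 to 144 in WT thymus, 11 to 26 in Atm-/- lymphomas and 13 to 50 in Rag2c/c p53-/- lymphomas, with log2 fold changes of -2.64 and -2.31. The survival gene Bcl2a1d fell by 1.85 and 3.13, a value made uncertain by near-identical copies of the gene. Bcl2l15 rose by 1.43 in Atm-/- lymphomas and had a log2 fold change of 0.64 in Rag2c/c p53-/- lymphomas (adjusted p = 0.288). Bok, an effector-like gene, had 6 to 10 normalized counts in the thymuses and 49 to 140 in Rag2c/c p53-/- lymphomas, where it rose by 3.42. Its thymus values lie near the floor, since 1 read was worth 3.24 units in WT thymus 2. Bbc3, which encodes the p53 target PUMA, fell by 1.27 in Rag2c/c p53-/- lymphomas. The log2 fold changes of Bok and Bbc3 in Atm-/- lymphomas were 0.83 (adjusted p = 0.547) and -0.31 (adjusted p = 0.492). The effector Bax, the partner of Bak1, had log2 fold changes of 0.69 (adjusted p = 0.0919) and -0.20 (adjusted p = 0.647).

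Downstream of the mitochondria, 17 genes of the apoptosome, the caspases and their inhibitors were tested. In Atm-/- lymphomas 3 rose and 6 fell, and in Rag2c/c p53-/- lymphomas 4 rose and 6 fell. The shares over all tested genes were 21.0% and 23.6% in Atm-/- lymphomas and 17.5% and 19.7% in Rag2c/c p53-/- lymphomas. The inhibitors of apoptosis Birc2 and Birc3 fell by 1.51 and 1.61 in Atm-/- lymphomas and by 1.68 and 1.74 in Rag2c/c p53-/- lymphomas. Endog, a mitochondrial nuclease, rose by 2.14 and 1.74. Between the lymphoma groups, Dffa and Dffb, the inhibitor and the nuclease of DNA fragmentation, were lower in Atm-/- lymphomas by 0.53 and 0.65 (adjusted p = 0.0162 and 0.0110).

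The death receptor route, 14 genes, meets the family at Bid. By limma 1 rose and 6 fell in Atm-/- lymphomas, and 0 rose and 6 fell in Rag2c/c p53-/- lymphomas. Shares over all tested genes were 21.0% and 23.6% in the first comparison and 17.5% and 19.7% in the second. At an unadjusted p under 0.05, 3 were higher and 6 lower in the first, and 2 and 6 in the second. The share of all tested genes at this unadjusted threshold was not computed. The receptor Fas had 1595 to 1673 normalized counts in WT thymus, 47 to 352 in Atm-/- lymphomas and 274 to 536 in Rag2c/c p53-/- lymphomas, with log2 fold changes of -3.61 and -2.22. Its ligand Fasl was at 42 to 45 in WT thymus and at no more than 7 in any lymphoma. Cflar, the inhibitor of caspase-8, fell by 2.01 and 1.92, and Cyld, a deubiquitinase, fell by 1.56 and 1.29. Casp8 and Tnfsf10, the protease that cleaves BID and the ligand TRAIL, were higher in Atm-/- than in Rag2c/c p53-/- lymphomas by 0.75 and 1.32 (adjusted p = 0.00300 and 0.0146). Tnfrsf1a was lower there by 0.88 (adjusted p = 0.00640). Against WT thymus, Tnfsf10 fell by 1.56 in Rag2c/c p53-/- lymphomas and had a log2 fold change of -0.23 in Atm-/- lymphomas (adjusted p = 0.615).

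Among 15 genes whose products bind, modify or transcribe the family, 3 rose and 6 fell in Atm-/- lymphomas and 3 rose and 5 fell in Rag2c/c p53-/- lymphomas. Beside them, 21.0% and 23.6% of all tested genes rose and fell in Atm-/- lymphomas. In Rag2c/c p53-/- lymphomas these shares were 17.5% and 19.7%. Usp9x, a deubiquitinase that stabilises MCL1, fell by 1.44 and 1.63 (adjusted p = 0.0379 and 0.0257). Vdac2, the channel that holds BAK at mitochondria, rose by 1.07 and 0.95 (adjusted p = 0.00243 and 0.00620). Foxo3, a transcription factor that induces Bcl2l11, fell by 0.96 and 0.49, and its relative Foxo1 fell by 1.11 in Atm-/- lymphomas and had a log2 fold change of -0.40 in Rag2c/c p53-/- lymphomas (adjusted p = 0.336). The kinase gene Pim1 fell by 0.88 in Atm-/- lymphomas and 1.05 in Rag2c/c p53-/- lymphomas, and Fbxw7, a ubiquitin ligase subunit for MCL1, by 0.78 and 0.73.

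**Figure D4:**
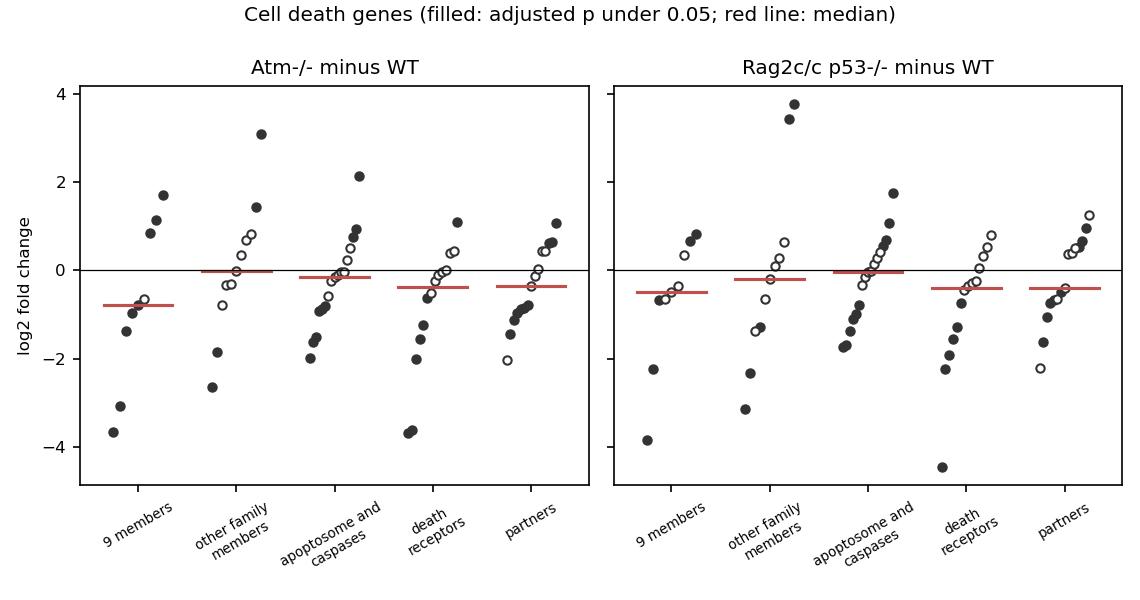
Log2 fold change (vertical axis) of the tested genes of the 5 lists in Atm-/- lymphomas (left) and Rag2c/c p53-/- lymphomas (right) against WT thymus, ordered by value within a list. Filled points passed the limma test and red lines are medians, which lie at -0.78 and -0.49 for the 9 members.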

How the data were processed

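RNA sequencing libraries of 5 Atm-/- and 5 Rag2c/c p53-/- thymic lymphomas and 3 WT thymuses were analysed, grouped by genotype and tissue as labelled. Per the submitters' processing notes, STAR 2.4.0g1, Picard and DESeq2 1.6.3 were used with GRCm38. The study's methods describe uniquely mapped reads without duplicates, counted per gene, for the WT thymuses and for tumors of other genotypes, and they were taken to hold for these lymphomas. The deposited values are scores: the authors' normalized counts, rounded to whole numbers. Whole reads could not be recovered, so no test for counts was run. The table also holds 22 columns of the authors' comparisons and pooled values, such as fold changes and p-values, which were not used.

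A linear model with 3 group means was fitted per gene to log2(value + 1) over all 13 libraries in limma 3.58.1 (R 4.3.3), and variances were moderated robustly along a trend with the mean. Genes below 10 in all but 2 or fewer libraries were dropped, so that 15872 of 43629 genes were tested, with Benjamini-Hochberg adjustment over all of them. A gene rose or fell at an adjusted p under 0.05. It changed at least 2-fold if the log2 fold change was also at least 1 in size and a group mean at least 10. Fold changes on this scale understate the change of low genes. On simulated data for Atm-/- lymphomas against WT thymus, with 15607 genes tested, 152 of 195 changed genes were recovered and 5 unchanged genes were called. The simulation gave every gene the same dispersion and only changes above 2-fold. Its recovery therefore need not hold for smaller changes or for genes that spread more between lymphomas. Exon lengths came from GENCODE vM21. Ranges and SDs describe the spread between libraries, and the precision is limited by their number. Named were all members, up to 4 called genes of each list with the largest change against WT thymus, the 3 genes most like each member, and the targeted genes. Some genes that this rule selects are not reported here. Other genes were named after their values were seen, among them Bax, Bbc3, Bcl2l13 and genes that differed between the lymphoma groups. Members and lists were chosen with earlier results of these data known. Alternatives covered scaling, filter, pseudocount, moderation, groups in the fit, fold threshold and leaving out each library.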

Additional observations from a re-analysis of the deposited data

Results flagged for a closer look

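Among 18 groups of 5 lymphoma values tested for a sample far from the others, 2 stood out, and chance alone gives about 1 in 20. Bcl2 in Rag2c/c p53-/- lymphoma 5 was 98 where the others had 235 to 303. On the log2(value + 1) scale, on which this was tested, the gap was 0.774 of the range of that group. Bcl2l1 in Rag2c/c p53-/- lymphoma 4 was 2005 where the others had 3498 to 4336, a gap of 0.722 of the range on the same log2 scale. The lowest libraries were different ones for these 2 survival genes.

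Bid differed in its change from WT thymus between the lymphoma groups. The difference was 0.879 on the log2 scale, higher in Atm-/- lymphomas in 5 of 5 libraries, with an adjusted p of 0.0252 by limma. It was the 1 member of 9 for which such a difference passed the test. Left-out libraries moved the difference little and the adjusted p across the threshold.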

How the results depend on the processing

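The calls of Bcl2 and Mcl1 against WT thymus, and of Bak1, Bid, Bad and Bcl2l2 in Atm-/- lymphomas, held under all 21 alternatives to the settings of the fit, 13 of which left out 1 library. The direction of every member against WT thymus also held. With a fold threshold of 0.5 on the log2 scale or none, 8 in place of 5 members counted as changed in Atm-/- lymphomas, 5 in place of 2 in Rag2c/c p53-/- lymphomas, and 1 in place of 0 between the lymphoma groups. With only the compared groups fitted, 3 members passed in Rag2c/c p53-/- lymphomas and 0 between the lymphoma groups by limma. On leaving out 1 library, 6 to 8 members passed and 4 to 6 changed in Atm-/- lymphomas. In Rag2c/c p53-/- lymphomas 2 to 5 passed and 1 to 3 changed, and between the lymphoma groups 0 to 2 passed and 0 to 1 changed. The difference of Bcl2 between the lymphoma groups was 0.18, lay between -0.20 and 0.83 on leaving out 1 library, and turned to -0.04, -0.11 and -0.20 without Atm-/- lymphoma 1, 2 or 4 and to -0.10 without Rag2c/c p53-/- lymphoma 5. Where a call was lost, the cause was not tested, apart from the smaller number of libraries that such a fit holds. No paired analysis was possible because the lymphoma labels carry no replicate numbers shared between groups. Depth limits the lowest values, such as those of Bcl2l2 and Fasl.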

Other observations

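Akt1, the kinase that phosphorylates BAD, was singled out after its values were seen. It had 47706 and 29777 normalized counts in Rag2c/c p53-/- lymphomas 3 and 4, against 4076 to 6086 in the other 8 lymphomas and 4398 to 5766 in WT thymus. As a group the Rag2c/c p53-/- lymphomas did not pass the test for Akt1 (log2 fold change 1.25, adjusted p = 0.136 by limma). Its 20 nearest tested genes, which span 1.23 Mb, had a median log2 difference from the WT mean of 1.33 in lymphoma 3 and 1.87 in lymphoma 4. In the other 8 lymphomas this median lay between -0.68 and 0.74. Siva1, next to Akt1 and known for a role in apoptosis, had 6986 and 8212 normalized counts in these lymphomas, 3.27 and 3.50 above the WT mean on the log2 scale. Jag2, a Notch ligand gene nearby, was 3.41 and 2.81 above it. This was not particular to these lymphomas, since Jag2 was 2.64, 1.655 and 2.20 above the WT mean in Rag2c/c p53-/- lymphomas 1, 2 and 5. In Atm-/- lymphomas its difference from the WT mean lay between -2.05 and 1.28. Bad had 435 and 657 normalized counts in the same libraries, within the range of the other Rag2c/c p53-/- lymphomas or below it.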
